A study of Homo sapiens with 6 samples.

Results

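The genes described here encode the subunits of the PPP family of serine and threonine phosphatases, from PP1 to PP6, and the classical protein tyrosine phosphatases. They were taken by symbol (PPP1 to PPP6, PTPN with a number and PTPR with a letter), without symbols ending in AS1 and without 1 further PPP1R gene, and with at least 60 reads summed over the libraries, which gave 86 of 24462 gene symbols. Of these, 58 encode PPP subunits, 1 is an inhibitor pseudogene, 13 are non-receptor tyrosine phosphatases and 14 carry a PTPR symbol. Among the last, PTPRCAP encodes a protein associated with CD45 and not a phosphatase. Another 35 matching symbols fell below 60 reads, 13 of them with no read. The minimum was set on total reads, which for a gene with few reads also depend on its change with propionate. The members were chosen with earlier results of these data known.

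The study measured RNA by sequencing in LS 174T, an established human line from a colorectal adenocarcinoma that secretes mucin and stands in for goblet cells. Control cells received no treatment and the other cells received 4 mM propionate, a short-chain fatty acid made by gut bacteria, for 4 h, with 3 libraries in each group and the same culture medium in both. All libraries come from 1 cell line, and no label names separate cultures within a group, so a p-value reflects only library-to-library spread, part of which may be technical. No vehicle is named for the control.

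A phosphatase removes the phosphate that a kinase adds. PP1 and PP2A do most serine and threonine dephosphorylation in a cell with few catalytic subunits, and the choice of substrate and place comes from a large set of regulatory subunits that bind them; calcineurin is the calcium-activated member of the family. The tyrosine phosphatases carry their substrate choice in their own chain, either as soluble and membrane-anchored enzymes or as receptor-like proteins that span the plasma membrane, and in intestinal epithelium they act on growth factor, cytokine and adhesion signalling.

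Library totals ran from 11603288 to 12746170 reads, and levels are given as CPM (the reads of a gene per 1000000 in its library). A scaling factor for each library was applied to these levels, except for the cell type markers. Without that factor 3 reads equal 0.235 to 0.259 CPM depending on the library. The members together took between 0.506% and 0.511% of the reads in control and between 0.523% and 0.528% with propionate. All 12 epithelial and goblet cell markers had reads (summed level 5052 to 6047 CPM in control and 5927 to 6904 CPM with propionate), and KRT20 and SPDEF were the lowest of them, at most at 1.896 and 5.67 CPM. Leukocyte markers summed to 32.6 to 36.6 CPM in control and 25.4 to 30.2 CPM with propionate, mostly CD68 and LYZ, and CD3E, CD3D and HLA-DRA, 3 of 12, had no read in any library. Fibroblast markers summed to 3.94 to 7.84 CPM in control and 6.87 to 8.81 CPM with propionate, with DCN and PDGFRA at 0 of 10. Endothelial markers summed to 0.776 to 3.04 CPM and 1.098 to 2.14 CPM, with 5 of 8 at 0, CDH5 and VWF among them. What part these markers have in the results was not tested. In RNA from whole cultures, fewer cells of a type and less RNA per cell cannot be told apart.

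The phosphatase genes changed in both directions. Of the 86 members, all of which had enough reads to be tested, 16 rose and 13 fell with propionate (edgeR quasi-likelihood test over all genes, Benjamini-Hochberg adjusted p under 0.05). Over all 13605 genes tested, 17.2% were higher and 17% were lower, and the members' shares of 18.6% and 15.1% lay close to these. The median log2 fold change was 0.02 over the members and -0.01 over all tested genes, and the median size of the change without its sign was 0.25 against 0.27. The libraries of the groups did not overlap for 42 members, a share of 48.8% beside 45.2% of all tested genes. Of the members, 7 were called and at least 1.5-fold higher (8.14%, beside 9.89% of all tested genes) and 5 called and at least 1.5-fold lower (5.81% beside 7.12%). Past 2-fold there were 3 rises (PPP1R32, PPP1R13L and PPP2R5B, 3.49% beside 5.01%) and 1 fall (PTPRO, 1.16% beside 1.98%). These shares too lay near those of all genes. PPP1R32 met the minimum on total reads only through its rise, as most of its reads came from the propionate libraries. The count of 3 rises thus depends in part on the rise itself. PPP1R36, which was not called, also met the minimum only through its propionate libraries. It had 7, 10 and 9 reads in the control libraries and 19, 15 and 12 in the propionate libraries. PPP1R36 is among the 42 members without overlap. In this fit all 11 catalytic subunits of the PPP family missed the threshold, whereas 21 of the 47 regulatory subunits passed it (44.7%, beside 34.2% of all tested genes). Whether these shares differ was not tested.

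None of the 11 catalytic subunits passed the threshold, and none had an unadjusted p under 0.05 in edgeR, DESeq2 or limma-voom. Their fitted log2 fold changes ran from -0.43 to 0.18. PPP1CA, PPP1CB and PPP1CC encode the 3 forms of the PP1 enzyme, which share most of their sequence. PPP1CA was at 162, 160.1 and 175 CPM in the control libraries and at 171, 198 and 182 CPM in the propionate libraries (fold change 95% interval 0.984 to 1.25, adjusted p = 0.173). PPP1CB was at 121, 117 and 130.4 CPM in the control libraries and at 109, 116 and 120.3 CPM in the propionate libraries (interval 0.829 to 1.06, adjusted p = 0.408). PPP1CC was at 182, 189 and 187 CPM in the control libraries and at 193, 191 and 203 CPM in the propionate libraries (interval 0.9399 to 1.18, adjusted p = 0.5102). For PPP1CC the propionate libraries all lay above the controls, and for the other two forms the groups overlapped. PPP1CA overlaps RAD9A on the opposite strand by up to 227 exon bases, and RAD9A went from 153 to 176 CPM. Reads of PPP1CA and RAD9A may therefore be mixed.

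For the 2 catalytic forms of PP2A the groups overlapped. PPP2CA averaged 170.4 ± 16.3 CPM in control and 184 ± 9.08 CPM with propionate (SD, n = 3, adjusted p = 0.364), and PPP2CB 106 ± 7.995 CPM in control and 109.97 ± 8.29 CPM with propionate (SD, n = 3, adjusted p = 0.672). Of the calcineurin catalytic genes, PPP3CA was at 126, 94.1 and 114 CPM in the control libraries and at 132, 118 and 129 CPM in the propionate libraries (adjusted p = 0.169), with control library 2 the lowest of the 6 libraries. PPP3CB averaged 37.4 ± 0.568 CPM in control and 33.8 ± 2.28 CPM with propionate (adjusted p = 0.294), and PPP3CC, the form best known from testis, 8.39 ± 0.572 CPM in control and 8.25 ± 0.223 CPM with propionate (adjusted p = 0.933). PPP6C, the catalytic subunit of PP6, was at 83.6, 89.9 and 84.8 CPM in the control libraries and at 90.4, 99.3 and 88.6 CPM in the propionate libraries (adjusted p = 0.364). PPP5C, a phosphatase bound to the chaperone HSP90, averaged 24.2 ± 2.47 CPM in control and 23.6 ± 1.22 CPM with propionate (adjusted p = 0.869). PPP4C, the catalytic subunit of PP4, was the most variable: it was at 8.998, 10.1 and 18.7 CPM in the control libraries and at 11.8, 6.42 and 9.97 CPM in the propionate libraries, with control library 3 far above the other controls and an interval of 0.5203 to 1.06 (adjusted p = 0.197). The intervals of the other 10 catalytic subunits lay between 0.763-fold and 1.31-fold. Other fits did call catalytic subunits. With the replicate number as a block, PPP1CA and PPP3CA passed (adjusted p = 0.0368 and 0.0144), both higher with propionate. With each library's trend on transcript GC content removed, PPP3CA passed (adjusted p = 0.0429). With the block and the GC correction together 5 of the 11 did, beside 2556 genes higher and 3506 lower among all 13605. PPP1CC (adjusted p = 0.0118), PPP2CA (0.00431), PPP6C (0.00558) and PPP3CA (9.33e-04) were higher there, PPP4C was lower (0.0137), and PPP1CA was not called (0.236).

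**Figure D1:**
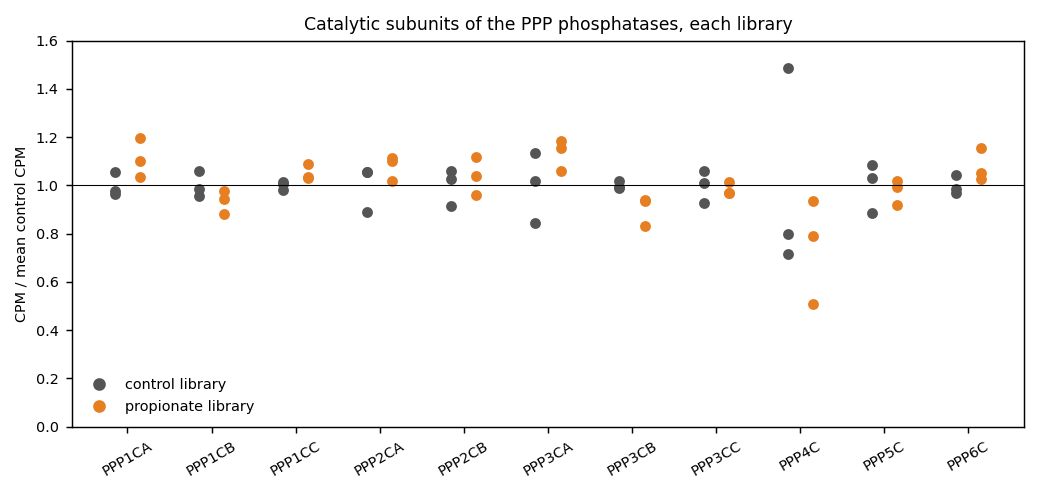
CPM of each library divided by the mean control CPM of the gene (vertical axis, linear from 0) for the 11 catalytic subunits, grey points for control and orange for propionate libraries. The groups overlap for 9 of the 11 subunits (all but PPP1CC and PPP3CB), and PPP4C has the widest spread, with control library 3 highest.

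Of the 29 PP1 genes (the pseudogene left out), 10 rose and 4 fell, a share of 34.5% and 13.8% beside 17.2% and 17% of all tested genes. Rises and falls were nearer in number with the GC trend removed: 7 were higher and 6 lower, beside 1984 and 2671 of all 13605 genes. With the replicate block as well 8 were higher and 7 lower, beside 2556 and 3506 of all genes. Whether the PP1 shares differ from those of all genes was not tested. In the fit without these corrections the median log2 fold change was 0.14 for the PP1 genes and -0.01 for all tested genes. Among the 6 PP1 inhibitors and small binding proteins, 1 rose and 1 fell, and with the GC trend removed 1 was higher and 3 lower. PPP1R8 encodes NIPP1, a nuclear PP1 inhibitor tied to pre-mRNA splicing and transcriptional repression. PPP1R8 was at 47.4, 49.6 and 48.4 CPM in the control libraries and at 35.95, 30.8 and 33.9 CPM in the propionate libraries, so every propionate library lay below every control, and it fell 1.44-fold (log2 fold change -0.53, SE 0.101, adjusted p = 4.53e-04). PPP1R2, which encodes an inhibitor that also holds newly made PP1, was at 32.8, 28.2 and 31.6 CPM in the control libraries and at 41.1, 33.6 and 41.6 CPM in the propionate libraries (1.26-fold higher, adjusted p = 0.0302). The lowest propionate library, number 2, was just above the highest control. The call of PPP1R2 was lost without control library 2, propionate library 1 or propionate library 3 (adjusted p between 0.114 and 0.123). The dopamine-regulated inhibitor gene PPP1R1B (DARPP-32) averaged 231 ± 11.2 CPM in control and 218 ± 1.29 CPM with propionate (adjusted p = 0.4305), and it was called lower with the GC trend removed (log2 fold change -0.34, adjusted p = 0.00229). PPP1R14B, an inhibitor of myosin phosphatase, averaged 196 ± 19.5 CPM in control and 168 ± 14.3 CPM with propionate and missed the threshold (adjusted p = 0.0614, log2 fold change -0.23, adjusted p = 0.00123 with the replicate block). With the GC trend removed PPP1R14B was called lower, with a larger change (log2 fold change -0.59, adjusted p = 7.06e-05). PPP1R7 and PPP1R11, other PP1 binding proteins, did not pass (adjusted p = 0.252 and 0.746). The pseudogene PPP1R2P3 resembles PPP1R2, so reads could be split between them, and it averaged 1.63 ± 0.295 CPM in control and 2.13 ± 0.206 CPM with propionate (adjusted p = 0.426).

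The glycogen-targeting subunits bring PP1 to glycogen synthase and phosphorylase. Of the 3 that reached the minimum on total reads 1 rose and 1 fell (33.3% each, beside 17.2% and 17% of all tested genes). PPP1R3E fell 1.81-fold: it was at 14.1, 15.8 and 13.2 CPM in the control libraries and at 7.67, 9.23 and 6.85 CPM in the propionate libraries (log2 fold change -0.86, SE 0.168, adjusted p = 5.99e-04). PPP1R3B, the form known as the liver subunit, was at 4.98, 5.21 and 3.996 CPM in the control libraries and at 7.13, 6.905 and 8.12 CPM in the propionate libraries and rose 1.56-fold (adjusted p = 0.0231). In both genes the groups were apart. The rise of PPP1R3B was lost without control library 3 or propionate library 3 (adjusted p between 0.0854 and 0.0908) and with DESeq2. PPP1R3D was at 5.94, 4.53 and 5.99 CPM in the control libraries and at 4.88, 5.06 and 4.06 CPM in the propionate libraries, with overlapping groups (adjusted p = 0.467). PPP1R3D overlaps FAM217B on the opposite strand, which fell from 100.6 to 29.6 CPM, and PPP1R3E shares exon bases with HOMEZ on its own strand, which rose (log2 fold change 0.60). The sources used here do not give the strand setting behind the counts, so reads of overlapping genes cannot be told apart with certainty.

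Subunits that target PP1 to myosin and the actin cytoskeleton had 4 rises and 2 falls among 7 members, and 1 of each with the GC trend removed. The first 2 counts are 57.1% and 28.6%, beside 17.2% and 17% of all tested genes. The myosin phosphatase targeting genes split. PPP1R12C (MBS85) was at 33.02, 37.4 and 34.2 CPM in the control libraries and at 51.6, 53.2 and 55.2 CPM in the propionate libraries (1.53-fold higher, log2 fold change 0.61, SE 0.09896, adjusted p = 8.98e-05). PPP1R12A, which encodes MYPT1, the main targeting subunit for myosin light chain, lay between 115 and 122 CPM in the control libraries and between 94.9 and 100.3 CPM in the propionate libraries (1.203-fold lower, adjusted p = 0.0159). Both had separate groups, but the fall of PPP1R12A missed the threshold without control library 2 or propionate library 2 (adjusted p between 0.0536 and 0.0635). PPP1R12B (MYPT2) averaged 27.8 ± 3.31 CPM in control and 23.9 ± 3.42 CPM with propionate (adjusted p = 0.224). PPP1R16A, a membrane-bound relative, rose 1.26-fold, from 58.1 to 73.04 CPM (adjusted p = 0.00765).

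The neurabins, scaffolds that bind both PP1 and actin filaments, split as well. PPP1R9A (neurabin) was at 51.98, 57.8 and 60.3 CPM in the control libraries and at 33.01, 40.5 and 41.1 CPM in the propionate libraries (1.48-fold lower, log2 fold change -0.57, SE 0.108, adjusted p = 4.2e-04). Its relative PPP1R9B (spinophilin) was at 17.5, 19.1 and 19.4 CPM in the control libraries and at 24.2, 26.2 and 21.4 CPM in the propionate libraries (1.28-fold higher, adjusted p = 0.036). No library crossed between groups in either gene, yet the call of PPP1R9B was lost without control library 1, control library 2, propionate library 1 or propionate library 2 (adjusted p between 0.0635 and 0.142) and with DESeq2. PPP1R18, which encodes the actin-binding phostensin, rose 1.33-fold, with 31.4, 29.4 and 28.1 CPM in the control libraries and 40.7, 37.1 and 40.4 CPM in the propionate libraries (adjusted p = 0.00497). Transcripts of PPP1R18, PPP1R16A and PPP1R9B have GC contents of 61.5%, 66.6% and 64.03%, beside a median of 48.9% over all tested genes. With each library's trend on transcript GC content removed all 3 missed the threshold: PPP1R18 (log2 fold change 0.16, adjusted p = 0.267), PPP1R16A (log2 fold change -0.02, adjusted p = 0.912) and PPP1R9B (log2 fold change 0.05, adjusted p = 0.777). PPP1R12A also missed it there (log2 fold change -0.16, adjusted p = 0.138), while PPP1R12C was still called (log2 fold change 0.26, adjusted p = 0.0478).

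The remaining PP1 partners, which act in the nucleus, in stress signalling or at other sites, had 4 rises and no fall among 10 members (edgeR, DESeq2 and limma-voom alike, none of them with a falling member at an unadjusted p under 0.05). These are 40% and 0%, beside 17.2% and 17% of all tested genes. With the GC trend removed the 4 rises were joined by 1 fall, that of PPP1R26 (log2 fold change -0.41 in place of -0.16, adjusted p = 0.0142, and 0.00356 with the block as well). The ASPP proteins bind p53 and PP1, and both PPP1R13 genes rose. PPP1R13L encodes iASPP, an inhibitor of p53-driven cell death, and was at 18.1, 19.2 and 19.6 CPM in the control libraries and at 43.2, 40.5 and 52.1 CPM in the propionate libraries (2.38-fold higher, log2 fold change 1.25, SE 0.119, adjusted p = 2.59e-07). PPP1R13B encodes ASPP1, which promotes p53-driven cell death, and was at 11.4, 12.3 and 10.7 CPM in the control libraries and at 20.1, 25.1 and 20.5 CPM in the propionate libraries (1.91-fold higher, log2 fold change 0.93, SE 0.144, adjusted p = 5.67e-05). In each gene the lowest propionate library was above the highest control. PPP1R13L overlaps CD3EAP on the opposite strand, which also rose (from 85.2 to 108.6 CPM). PPP1R10, which encodes PNUTS, a nuclear PP1 partner in transcription termination, was at 118, 125 and 113 CPM in the control libraries and at 165, 210.3 and 187 CPM in the propionate libraries (1.58-fold higher, log2 fold change 0.66, SE 0.0925, adjusted p = 2.07e-05). PPP1R32 rests on few reads, 5, 7 and 7 reads in the control libraries and 30, 23 and 29 reads in the propionate libraries, and was 4.03-fold higher (interval 2.16 to 7.49, adjusted p = 0.00111). Its control level of 0.539 CPM is near the level of 3 reads. PPP1R32 is a member only because of its rise, as its control level alone would have left its total reads below the minimum. The other 6 did not pass (adjusted p between 0.174 and 0.747). Among them was PPP1R15B, the constitutive partner that directs PP1 to the translation factor eIF2α, at 27.95, 28.7 and 36.4 CPM in the control libraries and at 30.2, 29.1 and 30.2 CPM in the propionate libraries (adjusted p = 0.747).

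**Figure D2:**
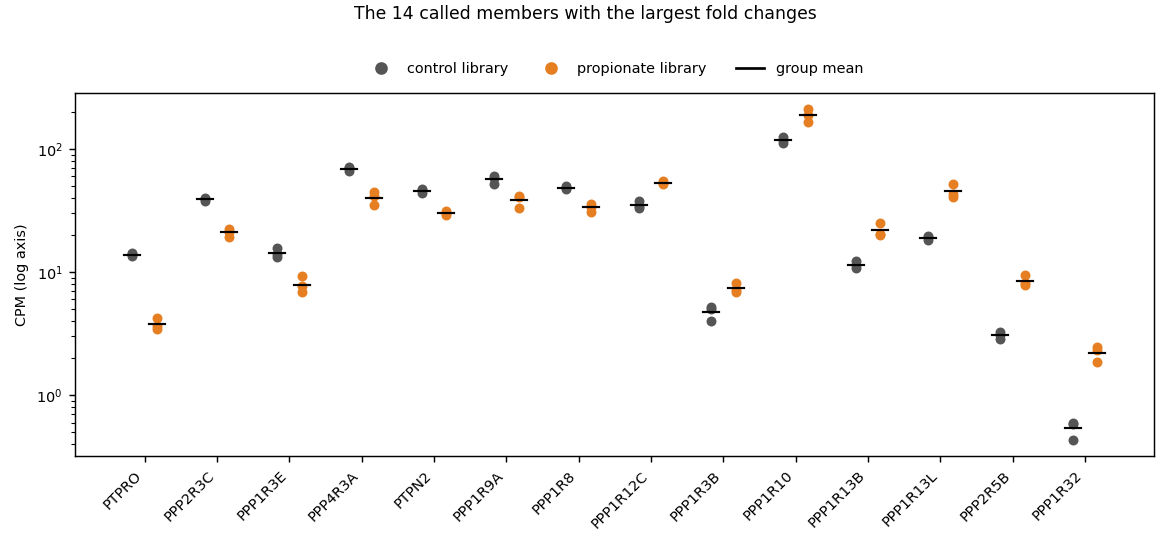
CPM in each library on a log axis for the 14 called members with the largest fold changes, ordered from the largest fall (PTPRO) to the largest rise (PPP1R32), with grey points for control, orange for propionate and black lines for group means. In each of these genes the 3 propionate points lie all above or all below the 3 control points.

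PP2A is a trimer of a catalytic, a scaffold and a B subunit. Of its 15 genes among the members 1 rose and 2 fell (6.67% and 13.3%, beside 17.2% and 17% of all tested genes). Their median log2 fold change was 0.00. With the GC trend removed 1 was higher and 3 lower, beside 1984 and 2671 of all 13605 genes tested. With the block as well 3 were higher and 4 lower, beside 2556 and 3506 of all genes. The scaffold genes PPP2R1A and PPP2R1B averaged 47.9 ± 2.66 CPM in control and 43.6 ± 1.397 CPM with propionate (adjusted p = 0.307) and 53.8 ± 4.27 CPM in control and 54.5 ± 3.15 CPM with propionate (adjusted p = 0.9005). PPP2R4, which encodes the PP2A activator PTPA, averaged 99.8 ± 0.789 CPM in control and 89.7 ± 8.81 CPM with propionate (adjusted p = 0.201, log2 fold change -0.15). With the GC trend removed PPP2R4 was called lower (log2 fold change -0.38, adjusted p = 0.00223), and with the block as well so was PPP2R1A (adjusted p = 0.026). Of the 10 B subunit genes, PPP2R5B (B56β) was at 2.88, 3.25 and 3.08 CPM in the control libraries and at 9.53, 7.79 and 8.12 CPM in the propionate libraries, 2.76-fold higher (log2 fold change 1.46, SE 0.218, adjusted p = 3.77e-05). PPP2R5A, of the same B56 family, was at 71.5, 66.2 and 73.4 CPM in the control libraries and at 62.5, 54.6 and 57.7 CPM in the propionate libraries (1.21-fold lower, adjusted p = 0.02997). That fall was lost without control library 1, control library 3, propionate library 2 or propionate library 3 (adjusted p between 0.0713 and 0.123). The largest fall was that of PPP2R3C, whose product binds PP2A and PP5, at 40.2, 37.8 and 39.2 CPM in the control libraries and at 19.4, 22.6 and 21.3 CPM in the propionate libraries (1.85-fold lower, log2 fold change -0.89, SE 0.1105, adjusted p = 5.37e-06). No library crossed between groups for these 3 genes. PPP2R5D averaged 285 ± 13.4 CPM in control and 324 ± 36.6 CPM with propionate (adjusted p = 0.105) and passed with the replicate block (adjusted p = 0.00507), higher with propionate. PPP2R5D overlaps MEA1 on the opposite strand by up to 1194 exon bases, and MEA1 went from 275 to 314 CPM. Reads of these genes may therefore be mixed. The other 6 B subunit genes did not pass. PPP2R2A, a B55 subunit, had a log2 fold change of -0.02 (interval on the fold 0.869 to 1.117, adjusted p = 0.874). PPP2R5B shares a few exon bases with GPHA2 on the opposite strand, which rose from 1.79 to 5.99 CPM.

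Calcineurin needs a calcium-binding regulatory subunit, and PPP3R1, the form outside testis, was at 113, 111 and 102 CPM in the control libraries and at 90.9, 96.5 and 87.8 CPM in the propionate libraries (1.18-fold lower, log2 fold change -0.24, SE 0.08505, adjusted p = 0.0321). The groups were apart, but the call was lost without control library 1, control library 2, propionate library 1 or propionate library 3 (adjusted p between 0.0792 and 0.106), with upper-quartile scaling and with the GC trend removed. The regulatory subunits of PP4 named PPP4R3A and PPP4R3B (SMEK1 and SMEK2), which recognise substrates, both fell. PPP4R3A was at 66.3, 70.95 and 70.5 CPM in the control libraries and at 44.3, 41.2 and 35.2 CPM in the propionate libraries (1.72-fold lower, log2 fold change -0.78, SE 0.102, adjusted p = 8.92e-06), and PPP4R3B at 57.2, 59.1 and 64.3 CPM in the control libraries and at 44.01, 45.1 and 49.2 CPM in the propionate libraries (1.31-fold lower, adjusted p = 0.00425). PPP4R1 and PPP4R2 were at 25.3 and 27.8 CPM in control and at 20.1 and 23.4 CPM with propionate (adjusted p = 0.0654 and 0.144), and PPP4R1 passed with the replicate block (adjusted p = 0.0138). Of the 3 PP6 partners, PPP6R2 rose, with 65.3, 57.9 and 61.4 CPM in the control libraries and 82.9, 85.1 and 86.3 CPM in the propionate libraries (1.38-fold higher, log2 fold change 0.46, SE 0.0883, adjusted p = 4.55e-04). PPP6R1 averaged 119 ± 9.99 CPM in control and 136 ± 8.69 CPM with propionate (adjusted p = 0.0994, and 0.00754 with the block), and PPP6R3 199 ± 8.57 CPM in control and 195 ± 4.01 CPM with propionate (adjusted p = 0.812). PPP6R2 overlaps SBF1 on the opposite strand, which also rose, from 188 to 298 CPM.

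Among the 13 non-receptor tyrosine phosphatases, 1 rose and 2 fell (7.69% and 15.4%, beside 17.2% and 17% of all tested genes). With the replicate block 3 were higher and 4 lower, beside 2980 and 3074 of all 13605 genes tested. PTPN1 and PTPN2 encode PTP1B and TCPTP, closely related enzymes that act on the insulin receptor and on JAK kinases, and they moved in opposite directions. PTPN1 was at 153, 149 and 144 CPM in the control libraries and at 197, 208 and 199 CPM in the propionate libraries (1.35-fold higher, log2 fold change 0.44, SE 0.0782, adjusted p = 2.48e-04). PTPN2 was at 46.9, 44.2 and 46.04 CPM in the control libraries and at 29.1, 30.4 and 31.3 CPM in the propionate libraries (1.51-fold lower, log2 fold change -0.60, SE 0.1, adjusted p = 1.31e-04). In neither gene did the groups overlap. PTPN23 (HD-PTP), which works with the ESCRT machinery of endosomes, was at 103, 105 and 100.3 CPM in the control libraries and at 79.1, 78.6 and 65.7 CPM in the propionate libraries (1.38-fold lower, log2 fold change -0.46, SE 0.0916, adjusted p = 6.09e-04). PTPN11 (SHP2), which relays growth factor signals to RAS, was at 98.6, 99.6 and 94.7 CPM in the control libraries and at 102, 112 and 97.1 CPM in the propionate libraries (adjusted p = 0.471). PTPN6 (SHP1), its relative of blood cells and epithelia, averaged 16.3 ± 2.699 CPM in control and 16.5 ± 3.19 CPM with propionate (adjusted p = 0.949). Their intervals were 0.938 to 1.203 and 0.7998 to 1.28 on the fold.

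Of the other 8 non-receptor genes, 2 narrowly missed the threshold with separate groups. PTPN13, a large PDZ-domain phosphatase, was at 2.36, 3.33 and 3.497 CPM in the control libraries and at 3.87, 5.22 and 5.92 CPM in the propionate libraries (adjusted p = 0.0513, and 0.0256 with the replicate block). PTPN21 was at 4.89, 4.103 and 6.33 CPM in the control libraries and at 3.49, 2.81 and 3.38 CPM in the propionate libraries (adjusted p = 0.0551, and 0.0372 with the block). Both are rare transcripts, and PTPN13 was also called with each of the 3 other scaling factors. PTPN3 and PTPN14, FERM-domain enzymes, passed with the replicate block (adjusted p = 0.0376 and 0.0352) and not without it (adjusted p = 0.107 and 0.179), PTPN3 lower and PTPN14 higher. PTPN4, PTPN9, PTPN12 and PTPN18 did not pass (adjusted p = 0.242, 0.2102, 0.332 and 0.589). Control library 3 stood apart for PTPN9, at 12.4 CPM beside 6.73 and 6.24 CPM.

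PTPRO had the largest fall of all members. It encodes a receptor-type tyrosine phosphatase first described in kidney podocytes as GLEPP1. PTPRO was at 14.1, 14.2 and 13.4 CPM in the control libraries and at 4.26, 3.45 and 3.63 CPM in the propionate libraries, and every propionate library was well below every control library. The fall was 3.66-fold (log2 fold change -1.87, SE 0.183, adjusted p = 3.7e-07, range 3.97e-18 to 6.2e-06 over the alternatives). The stretch before its start site in RefSeq (GRCh38.p14), limited to the bases of a 250-base window that lie outside annotated exons, is shown with that of PPP2R5B, because these 2 members had the largest fold changes among those above 5 CPM. Sequences run 5′ to 3′ on the strand of the gene, and capitals mark matches to 8 motifs on either strand.
PTPRO, chr12:15322258-15322396, plus strand: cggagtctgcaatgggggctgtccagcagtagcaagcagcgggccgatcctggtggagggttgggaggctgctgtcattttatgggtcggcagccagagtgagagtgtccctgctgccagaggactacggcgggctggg
PPP2R5B, chr11:64924461-64924670, plus strand: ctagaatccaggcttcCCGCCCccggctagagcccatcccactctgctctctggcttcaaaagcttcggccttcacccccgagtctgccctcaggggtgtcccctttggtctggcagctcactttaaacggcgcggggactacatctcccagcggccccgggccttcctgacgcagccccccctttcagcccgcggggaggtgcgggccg
The PPP2R5B stretch holds 1 match to GGGCGG, the Sp1 box, on the opposite strand, and the PTPRO stretch holds none of the 8. The PTPRO stretch is only the part of its window farthest from the start site, as the window runs to position 15322507. The full 250-base PTPRO window does hold a CCAAT match, which does not lie within the stretch shown.

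The other called receptor-type genes had smaller fold changes. PTPRE was at 39.7, 53.6 and 47.1 CPM in the control libraries and at 36.96, 35.9 and 34.1 CPM in the propionate libraries (1.31-fold lower, adjusted p = 0.0108), and the call was lost without control library 2 (adjusted p = 0.0804). PTPRU, of the family with adhesive MAM domains, was at 30.9, 30.9 and 23.6 CPM in the control libraries and at 38.2, 39.8 and 39.1 CPM in the propionate libraries (1.37-fold higher, log2 fold change 0.46, SE 0.116, adjusted p = 0.00483). PTPRS, a receptor for proteoglycans, was at 11.5, 12.3 and 11.7 CPM in the control libraries and at 15.4, 13.9 and 17.4 CPM in the propionate libraries (1.32-fold higher, adjusted p = 0.0463). PTPRJ (CD148), a growth-inhibiting phosphatase of epithelia, was at 11.1, 8.04 and 11.8 CPM in the control libraries and at 14.6, 11.64 and 16.7 CPM in the propionate libraries (1.39-fold higher, adjusted p = 0.0479), and it is the only called member whose groups overlapped. The calls of PTPRS and PTPRJ depended on single libraries: PTPRS missed without control library 1, control library 2, control library 3, propionate library 1 or propionate library 3 (adjusted p between 0.0726 and 0.181), PTPRJ missed without control library 1, control library 2, propionate library 1 or propionate library 3 (adjusted p between 0.0556 and 0.2101), and neither passed with DESeq2 or limma-voom. After removal of the GC trend PTPRU (log2 fold change 0.20, adjusted p = 0.174) and PTPRS (log2 fold change 0.12, adjusted p = 0.587) were not called.

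Of the 9 receptor-type members that did not pass, PTPRF (LAR), a phosphatase of cell junctions, was at 232, 197 and 243 CPM in the control libraries and at 258, 211 and 269 CPM in the propionate libraries (adjusted p = 0.315). It was higher in each of the 3 same-number pairs and passed with the replicate block (adjusted p = 0.0363). PTPRR, which acts on MAP kinases, was at 7.08, 5.21 and 5.66 CPM in the control libraries and at 3.797, 4.26 and 4.06 CPM in the propionate libraries, with separate groups (adjusted p = 0.0623, and 0.0474 with the block). PTPRH, known from intestinal microvilli, averaged 3.18 ± 1.18 CPM in control and 4.02 ± 0.794 CPM with propionate (adjusted p = 0.418). PTPRA, PTPRB, PTPRD, PTPRG, PTPRK and PTPRCAP had log2 fold changes between -0.11 and 0.49 with adjusted p between 0.334 and 0.977. PTPRC, which encodes the leukocyte antigen CD45 and is no member, had no read in control and 1, 2 and 0 reads with propionate.

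Closely related members that were called in opposite directions shifted their ratio. These 5 pairs were chosen after their values were seen, each as a member called higher over a member called lower. The direction of the shift was thus set by the choice, and the ratios are a description. They are ratios of CPM, not corrected for transcript length or GC content. The ratio of PTPN1 to PTPN2 was 3.27, 3.37 and 3.12 in the control libraries and 6.79, 6.83 and 6.35 with propionate, a change of 2.05-fold. PPP1R12C over PPP1R12A was 0.288, 0.308 and 0.287 in the control libraries and 0.514, 0.561 and 0.552 with propionate (1.84-fold). Their transcripts have 67.0% and 39.1% GC, and with the GC trend removed their log2 fold changes were 0.26 and -0.16. For spinophilin over neurabin, PPP1R9B over PPP1R9A, the ratio was 0.336, 0.331 and 0.322 in the control libraries and 0.732, 0.645 and 0.521 with propionate (1.901-fold). These transcripts have 64.0% and 40.1% GC, and with the GC trend removed their log2 fold changes were 0.05 and -0.47. PPP2R5B over PPP2R5A was 0.0403, 0.0491 and 0.04195 in the control libraries and 0.152, 0.143 and 0.141 with propionate (3.33-fold). For the glycogen-targeting pair PPP1R3B over PPP1R3E it was 0.354, 0.3297 and 0.304 in the control libraries and 0.929, 0.748 and 1.19 with propionate (2.85-fold), with the widest spread among propionate libraries. In all 5 pairs the propionate ratios lay above the control ratios, a direction set by the choice of pairs.

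**Figure D3:**
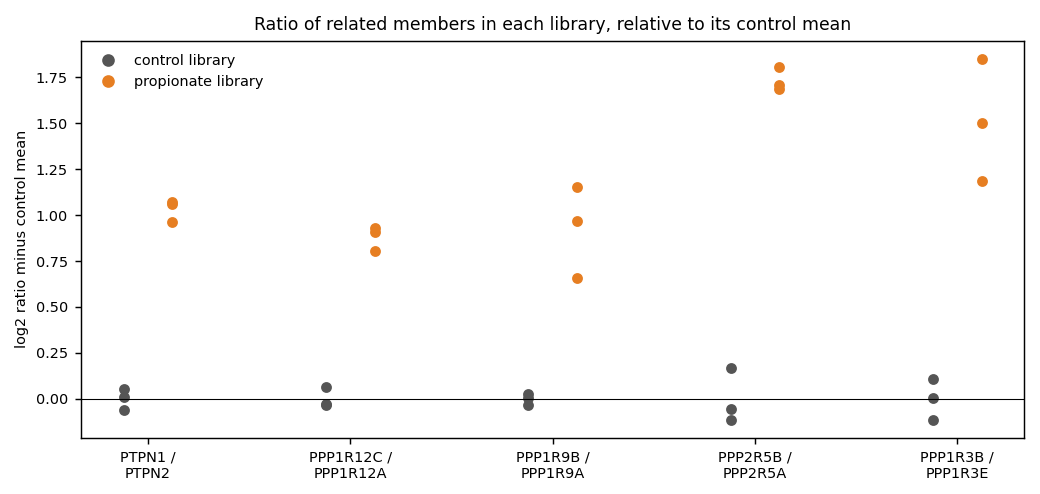
Log2 ratio of the CPM of 2 related members in each library minus the mean of the control libraries (vertical axis) for 5 pairs called in opposite directions, grey for control and orange for propionate. The propionate points lie above the control points in each pair, with the largest shift for PPP2R5B over PPP2R5A (3.33-fold) and the smallest for PPP1R12C over PPP1R12A (1.84-fold). The direction follows from the choice of pairs, and the ratios are not corrected for GC content.

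The called members differed in base composition. The median GC content of the transcript was 60.9% for the 16 higher members, 43.2% for the 13 lower and 45.8% for the 57 others. Across the 86 members, GC content and log2 fold change had a Spearman's rho of 0.313 and a Pearson's r of 0.329, and across the 13158 tested genes with a transcript match 0.265 and 0.25. These are correlations across genes, which are not independent and share libraries. With the trend removed in each library, 13 members were higher and 16 lower, beside 1984 and 2671 of all 13605 genes tested. Of the 16 higher and 13 lower members, 11 and 11 kept their call. PPP1R13L (log2 fold change 0.92, adjusted p = 1.11e-05), PPP2R5B (log2 fold change 1.22, adjusted p = 2.27e-04) and PTPRO (log2 fold change -1.81, adjusted p = 4.4e-07) were among them, while the fitted change of PPP1R16A turned to -0.02. With the replicate block as well, 20 members were higher and 21 lower, beside 2556 and 3506 of all genes tested.

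**Figure D4:**
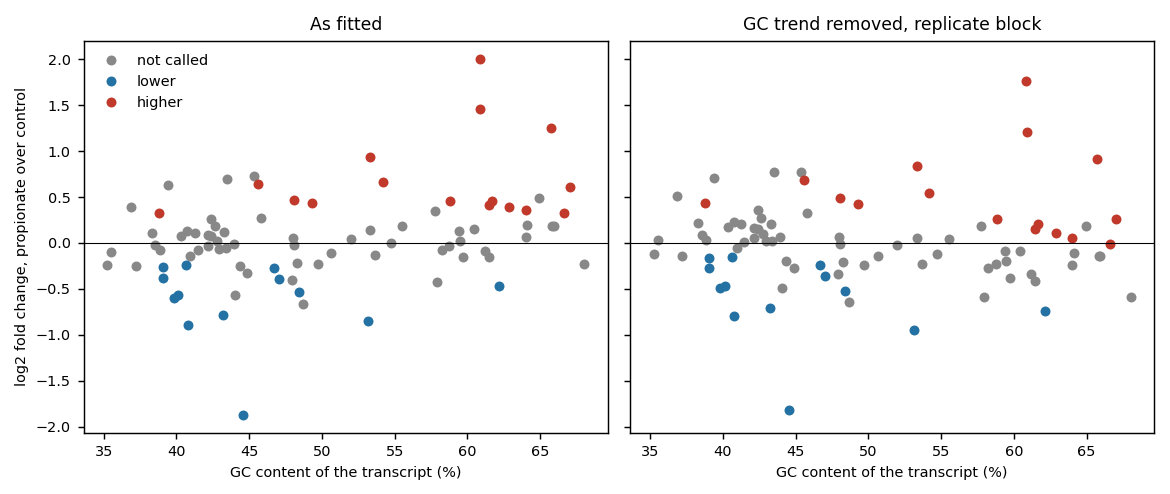
Log2 fold change of each member (vertical axis) against the GC content of its transcript in percent (horizontal axis), as fitted on the left and, on the right, from the fit with both the replicate block and the GC correction. Colours give the call as fitted, red higher, blue lower and grey not called. On the left most red points lie at high GC content, and on the right several of these, such as PPP1R16A (log2 -0.01), lie near 0, whereas PTPRO stays the lowest point in both.

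Promoters were taken from RefSeq (GRCh38.p14), matched by symbol for 70 of the 86 members, as the 250 bases before the start site. The motifs searched were GGGCGG (Sp1 box), CCAAT, TGACGTCA (cAMP response element), CACGTG (E-box), CCGGAAG (ETS), the NRF1 motif, TATAAA and TGACTCA (AP-1), each on both strands. GGGCGG occurred in 10 of 13 higher, 9 of 12 lower and 31 of 45 other members, beside 42.6% of all 35116 promoters of the same length. CCAAT occurred in 7, 4 and 18 of these, beside 32% of all. TGACGTCA occurred in 3 of the 13 higher members (PPP1R12C, PTPRU and PTPRS), in none of the 12 lower and in 1 of the 45 others (PPP2R2D), beside 1.65% of all promoters. These counts are small and were not tested. The promoters also differ in composition: median GC was 69.2% for the higher, 67.4% for the lower and 67.2% for the other members, beside 58% for all. Median CpG counts were 26, 21.5 and 26, beside 11. The shares over all promoters are therefore not a matched background for motifs rich in G and C. In PTPRS a GGGCGG match and a CACGTG match share 1 base. The 3 higher members' stretches outside annotated exons are shown with motif matches in capitals.
PPP1R12C, chr19:55117638-55117887, minus strand: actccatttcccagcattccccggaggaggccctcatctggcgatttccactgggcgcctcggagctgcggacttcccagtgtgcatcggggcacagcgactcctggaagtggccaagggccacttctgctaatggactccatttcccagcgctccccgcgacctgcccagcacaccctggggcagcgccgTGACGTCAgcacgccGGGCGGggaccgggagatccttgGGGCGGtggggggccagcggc
PTPRU, chr1:29236272-29236515, plus strand: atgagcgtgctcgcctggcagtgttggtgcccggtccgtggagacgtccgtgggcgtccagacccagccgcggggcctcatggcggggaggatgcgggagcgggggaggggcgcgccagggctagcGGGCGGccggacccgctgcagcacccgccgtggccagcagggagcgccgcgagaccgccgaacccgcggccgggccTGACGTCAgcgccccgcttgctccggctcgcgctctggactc
PTPRS, chr19:5340813-5341062, minus strand: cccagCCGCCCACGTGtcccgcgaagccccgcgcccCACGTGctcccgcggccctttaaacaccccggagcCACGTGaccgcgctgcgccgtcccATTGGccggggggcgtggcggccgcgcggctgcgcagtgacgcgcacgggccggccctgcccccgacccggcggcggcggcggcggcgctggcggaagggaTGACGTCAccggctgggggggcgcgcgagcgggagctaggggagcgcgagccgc
The TGACGTCA match begins 59, 48 and 54 bases before the start site in PPP1R12C, PTPRU and PTPRS. A match is a description of the letters and not a shown binding site. Of these 3 genes, PPP1R12C was called in each alternative run, and PTPRU and PTPRS lost the call with the GC trend removed.

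Other genes that work with these phosphatases came from lists of related genes. Over all tested genes 17.2% were higher and 17% lower, and the list counts were not tested against these shares. The share called higher was 5.88% for the PP2A modifiers, 7.14% for the STRIPAK partners and 21.4% for the calcineurin list. Of 17 modifiers and inhibitors of PP2A, 1 rose and 6 fell (median log2 fold change -0.17, beside -0.01 for all tested genes). The 6 falls became 3 without control library 1, with upper-quartile factors or with the GC trend removed, 4 without any 1 of the other 5 libraries, and 9 with the replicate block. LCMT1, the methyltransferase that modifies the PP2A catalytic subunit, rose 1.32-fold (from 43.9 ± 4.43 to 58.2 ± 2.66 CPM). SGOL1, the shugoshin that brings PP2A to centromeres, fell 1.79-fold (from 60.1 ± 3.695 to 33.5 ± 3.87 CPM), ANP32B 1.48-fold (from 478 ± 8.49 to 324 ± 6.399 CPM) and BOD1, a mitotic PP2A inhibitor, 1.39-fold. Of 14 tested partners of the STRIPAK complex, which is built on PP2A, CTTNBP2NL rose (1.45-fold) and SIKE1 fell (1.45-fold), and with the replicate block 3 were higher and 1 lower. With the GC trend removed 3 were higher and 3 lower. Among 14 tested calcineurin regulators and NFAT factors 3 rose and none fell: the calcineurin inhibitor gene RCAN1 (1.4003-fold, from 29.8 ± 4.404 to 41.8 ± 4.03 CPM), NFATC4 (2.11-fold) and NFATC2 (1.803-fold), the latter pair at 4.58 and 4.34 CPM with propionate. At an unadjusted p under 0.05 edgeR had 5 higher and 1 lower, DESeq2 and limma-voom also called 3 and 0, and with the replicate block 8 were higher and 2 lower. Without control library 2 or control library 3, 3 were higher and 1 lower, and with upper-quartile factors 5 were higher.

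Of 19 PPM phosphatases and partners, the metal-dependent family unrelated to PPP enzymes, 5 rose and 1 fell, and 2 fell without control library 3, without propionate library 1 or with the GC trend removed. PPM1J went from 2.705 ± 0.289 to 12.1 ± 2.49 CPM (4.46-fold), PPM1N from 1.43 ± 0.434 to 6.76 ± 2.497 CPM (4.71-fold) and PPM1M from 6.097 ± 0.9701 to 12.1 ± 1.124 CPM (1.98-fold), while PPM1D, the p53-induced WIP1 phosphatase, fell 1.58-fold. Within 11 tested phosphatases of the RNA polymerase II tail and the EYA family, CTDSP1 fell (1.36-fold) and none rose. DESeq2 and limma-voom gave the same counts, edgeR had 2 higher and 3 lower at an unadjusted p under 0.05, and with the replicate block 2 were higher and 3 lower. Without control library 2 the falls were 2, and without propionate library 2 or 3 there was 1 rise. The 38 tested cysteine phosphatases outside the classical families had 7 rises and 7 falls, led by DUSP5 (2.93-fold, from 4.63 ± 0.679 to 13.6 ± 1.67 CPM), PTP4A3 (1.98-fold) and DUSP8 (1.98-fold) and by PTP4A1 (1.35-fold lower), CDC25A (1.36-fold lower) and DUSP28 (1.67-fold lower). Of 33 adaptors and kinases that tyrosine phosphatases oppose, 9 rose and 4 fell. The rises were 6 without control library 1 or 2, 7 without any 1 propionate library and 10 without control library 3. The falls were 2 without propionate library 2. With the GC trend removed 8 were higher and 7 lower. The share called higher was 27.3% here, 26.3% for the PPM list and 18.4% for the cysteine phosphatases, beside 17.2% of all tested genes. As for the lists above, these shares were not tested. PAG1, the membrane adaptor that recruits CSK, rose 2.08-fold (from 15.5 ± 2.06 to 32.3 ± 3.24 CPM), STAT3 1.51-fold and CBL 1.398-fold. SHC1 and SOS1, which link receptors to RAS, fell 1.64-fold and 1.57-fold, and STAT5A fell 1.56-fold.

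Of the 35 symbols below 60 reads, PTPRN2 had the most (47 reads), and PPP1R36 had the fewest among the members (72 reads). PPP1R14D had 0, 1 and 0 reads in the control libraries and 6, 5 and 7 reads with propionate. PTPRM, an adhesive receptor phosphatase, had control counts of 5, 1 and 6 and propionate counts of 0, 0 and 2. PPP1R3A, PPP1R3C, PPP3R2, PTPRT and PTPRZ1, genes best known from muscle, testis or brain, were without a read in all 6 libraries. Counts this low were not compared.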

How the data were processed

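Libraries came from total RNA, with a Lexogen QuantSeq kit per the labels' protocols, a kit line best known for reading transcript 3' ends. The labels' catalogue number may be that of a different kit, and the tables hold no read positions, so whether reads come from 3' ends is not known here; this bears on overlapping genes and on ratios of CPM. Bowtie2, edgeR, hg19 and GRCh37 are named in the submitters' processing notes. For the read counter, strand setting and annotation, nothing is given in the sources used here. For each library the authors deposited a table of whole-number read counts by gene symbol, not normalized. Groups and replicate numbers came from the sample titles, where prime marks number the replicates. Counts of 286 repeated symbols were summed. Libraries of a group differed by more than sampling noise (chi-square per degree of freedom 6.31 to 9.36).

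The main test was two-sided, the quasi-likelihood F test of edgeR 4.0.16 in R 4.3.3, without covariates. It used TMM factors and the 13605 genes that filterByExpr retained, and called a Benjamini-Hochberg adjusted p under 0.05 over all these genes. The fit was tested on simulated data. CPM levels used the TMM factors, except those of the cell type markers and of 3 reads, which used library totals. Values after ± are SDs over 3 libraries. Intervals are 95% intervals of the fitted fold change. Also run were DESeq2 1.42.0, limma 3.58.1 (voom), 3 other scalings, other filters, a stricter threshold, the replicate block, removal of a spline trend (4 degrees of freedom) on transcript GC content from GENCODE release 29, and leaving out each library. Members were matched by name to the same release (GRCh38), and overlaps were found from its exon coordinates. The deposited counts carry gene symbols and no coordinates.

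The main fit did not pair the samples, and only the alternative with the replicate block paired them by number. Deviations from group means correlated at 0.258, 0.418 and 0.457 for equal numbers over 8868 genes above 10 CPM. For unequal numbers the correlations ran from -0.366 to 0.00448. Deviations within a group of 3 cancel out, so this is weak evidence of pairing.

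Members named were the 12 rises and 12 falls with the smallest p above 5 CPM, up to 4 called members per direction and the most read member in each role group, every catalytic subunit, and PTPN1, PTPN2, PTPN6, PTPN11, PTPRO and PTPRC, plus up to 3 genes per direction of each related list; other members and the 5 ratio pairs were named after their values were seen. The members and lists were chosen with earlier results of these data known.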

Additional observations from a re-analysis of the deposited data

How the results depend on the processing

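Counts of called genes moved with the GC correction, the replicate block and the threshold. With the GC trend removed in the fit with the replicate block, 21 members were lower in place of 13, 34 genes of the related lists in place of 20, and 3506 of all genes in place of 2316; the cause was not tested. At an adjusted p under 0.01, 1424 of all genes were lower, and the related lists had 15 higher in place of 26 and 12 lower. With the replicate block alone, 23 members were higher and 18 lower, beside 2980 and 3074 of all 13605 genes tested. That fit kept all 16 and 13 calls of members and added 7 and 5. DESeq2 gave 12 members higher and 13 lower, beside 2129 and 2081 of all genes. Leaving out 1 library in turn gave 12 to 15 higher and 11 to 13 lower members. Over all genes it gave 1984 to 2086 higher and 1865 to 1999 lower. The fitted change of PPP1R16A turned to -0.0152 with the GC trend removed and to -0.0146 with the block as well (adjusted p = 0.912 and 0.888). Of the 29 called members, 17 kept direction and call in each alternative run on them, the stricter threshold apart. Depth limits the rarest members: the fold intervals of PPP1R36 and PTPRCAP run from 0.863 to 3.19 and from 0.765 to 2.596.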
